A study of Mus musculus with 9 samples.

Results

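The genes of macroautophagy and its cargo receptors were followed across ribosome footprint libraries of 3 striatal cell lines of the mouse. Members were taken by name from the gene count table: the numbered Atg genes, Wipi1 and Wipi2, the Gabarap and Map1lc3 genes, the ULK and class III PI3-kinase subunits, the receptors Sqstm1, Nbr1, Optn, Calcoco1, Tax1bp1, Bnip3, Bnip3l and Wdfy3, and the transcription factors Tfeb and Tfe3. This gave 44 of 36410 rows, taken by symbol and not by a threshold on any measured value. The list of symbols was drawn up with earlier results of these data known. Of these, 43 passed the filter on low counts. Atg9b, a paralog of the vesicle protein Atg9a, did not pass it and held between 0 and 7 counts per library.

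Macroautophagy encloses cytoplasm in a double membrane, the autophagosome, and delivers it to the lysosome. The ULK kinase complex starts the process, the class III PI3-kinase marks the forming membrane with PI3P, WIPI proteins read that mark, and 2 conjugation systems attach ATG8 proteins (the LC3 and GABARAP families) to the membrane, where they bind cargo receptors. Huntingtin has itself been linked to selective autophagy, and autophagy is among the processes studied most in Huntington disease cells.

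Ribosome profiling counts ribosome-protected fragments (RPFs), the short stretches of mRNA that a translating ribosome shields from nuclease. Footprints came from immortalized striatal precursor cells with 7 glutamines on both Htt alleles (control, STHdhQ7/Q7), with 7 on 1 allele and 111 on the other (HD-het, STHdhQ7/Q111) or with 111 on both (HD-homo, STHdhQ111/Q111), in 3 libraries each from separate rounds of culture. The labels give the strain of all lines as C57/BL6. All cells received cycloheximide, which halts elongation, for 10 min, and RNA of 26 to 32 nt was taken from the 80S monosome fraction. Each genotype is 1 cell line, so genotype and line cannot be told apart. No mRNA libraries were used, so a higher footprint level may stand for more mRNA, for more ribosomes per mRNA, or both, and these cannot be told apart here.

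Library totals ran from 22504543 to 41888701 counts, and the 44 members together held 0.187% to 0.248% of a library. Levels are given as CPM, a gene's counts divided by the TMM-adjusted total of the library and multiplied by 1e6. A limit of 3 counts, which a count of 0 allows, stands for 0.0716 to 0.133 CPM of an unadjusted total, and covers counting error only. The lines differed widely outside autophagy. Htt itself gave 28.1 to 30.0 CPM for control, 19.4 to 20.9 for HD-het and 5.79 to 7.69 for HD-homo. Of 15 listed markers of striatal projection neurons 14 had a row and 5 passed the filter, and the dopamine receptor genes Drd1 and Drd2 were at 0 in all 9 libraries, while Ppp1r1b, which encodes DARPP-32, was read in all 3 lines. Of 9 mesenchymal and mural markers 8 were tested, and their summed level was 28927 to 31243 CPM in HD-het against 6882 to 9829 in control and 5653 to 7236 in HD-homo libraries, which overlapped. Of these markers Col1a2 (mean of 1027 CPM, against 88.9 in HD-het) and Twist1 (23.0 against 13.5 CPM) were highest in HD-homo. The summed level of 11 neural progenitor markers was 9602 to 9869 CPM for control, 9023 to 9847 for HD-het and 6023 to 6556 for HD-homo, and Vim made up most of it. Other progenitor markers differed more, and not in one direction. Means for control, HD-het and HD-homo were 400, 1086 and 7.01 CPM for Nes and 51.2, 33.9 and 2.26 CPM for Sox2. Pax6 stood at 17.3, 24.8 and 0.0759 CPM. Dlx2 (9.25, 2.11 and 19.9 CPM) and Dlx1 (2.71, 1.83 and 4.02 CPM) were instead highest in HD-homo. Fabp7 was highest in HD-het (1.12, 22.3 and 3.04 CPM), while Gsx2 and Hes5 were at 0 in all libraries. The summed level of 7 oligodendrocyte lineage markers was 121 to 190 CPM in HD-homo libraries and at most 18.8 CPM in the others, in HD-homo nearly all of it Pdgfra, with Mog and Olig2 at 0.

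The ATG8 genes are shown first because their products are the conjugated end point of the pathway and the study examined LC3A and LC3B. ATG4 proteases cut each ATG8 precursor behind a glycine near its end, and the exposed glycine is then joined to lipid. The last 30 bases of each coding sequence, read from the RefSeq annotation of GRCm38.p6, are given 5′ to 3′ with the last glycine codon in capitals.
Gabarap (chr11:69994495-69994524, plus strand): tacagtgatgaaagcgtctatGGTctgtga
Gabarapl1 (chr6:129541138-129541167, plus strand): tacagtgatgaaagtgtctatGGAaaatga
Gabarapl2 (chr8:111952376-111952405, plus strand): tacagcggagagaacacttttGGCttctga
Map1lc3a (chr2:155277608-155277637, plus strand): tacgcctcccaagaaaccttcGGCttctga
Map1lc3b (chr8:121596741-121596770, plus strand): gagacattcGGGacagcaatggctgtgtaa
In Map1lc3b 5 codons stand between the glycine and the stop, against 1 codon in each of the other genes. Each of the 5 stretches lies in the last of 4 coding exons of its gene. The coding sequences were 77.5% identical between Map1lc3a and Map1lc3b and 74.9% between Gabarap and Gabarapl1. No stretch longer than 17 bases was shared by any pair, which is below the shortest footprint of 26 nt, so a whole footprint from the coding sequence of one of these genes had no exact copy in another. Copies elsewhere in the genome were not analysed here.

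To ask how far the pathway as a whole differed between the lines, the calls among its members were set beside those among all 12678 genes tested. Each mutant line was compared with the same 3 control libraries. In HD-het cells 17 of the 43 tested members were higher than in control and 6 were lower, where 31% of all tested genes were called higher and 29.1% lower. HD-homo cells had 13 members higher and 4 lower than control (23.3% and 22.3% of all genes). Between the mutant lines 9 members were higher in HD-homo and 10 were higher in HD-het cells (34.6% and 32.8% of all genes). A test of any difference among the 3 lines called 27 members, against 78.4% of all genes. In either direction, 60.1%, 45.7% and 67.5% of all genes were called in the 3 comparisons. The members, with 53.5%, 39.5% and 44.2% called, were close to the background against control and below it between the mutant lines. Read by direction, 39.5% and 30.2% of members were higher in HD-het and HD-homo than in control, above the background of each, and 14.0% and 9.30% were lower, below it. These gaps between members and background were not tested. In bulk libraries fewer cells of a kind and fewer footprints per cell cannot be told apart. The median absolute log2 fold change of members was 0.35 in HD-het, 0.23 in HD-homo and 0.21 between the mutant lines, against 0.46, 0.32 and 0.55 over all genes. A called change of at least 2-fold was found for 3, 3 and 2 members in these comparisons (20.8%, 17.2% and 27.3% of all genes). The CPM values of the groups did not overlap for 27, 18 and 19 members (71.2%, 55.5% and 69.5% of all genes).

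The signed medians were above 0, at 0.20 for HD-het and 0.10 for HD-homo against control, beside 0.02 over all genes in both. By pattern, 7 members were higher than control in both mutant lines (9.54% of all genes), namely Atg10, Bnip3l, Gabarap, Map1lc3a, Optn, Ulk2 and Wipi1, and Atg101 alone was lower in both (7.46% of all genes). HD-het stood above both other lines for 8 members (21.8% of all genes), which were Map1lc3b, Pik3r4, Rb1cc1, Sqstm1, Tax1bp1, Ulk1, Ulk2 and Wdfy3, and below both for 5 (21.9%), which were Atg101, Atg2a, Atg5, Gabarapl2 and Wipi2. Some of these placements rest on weak differences between the mutant lines. That of Tax1bp1, whose libraries overlap, was lost without HD-het replicate 1 or 2 or HD-homo replicate 1 or 3 (adjusted p 0.0670 to 0.0899), with total counts and with offsets for GC content and coding length. That of Atg2a was lost without HD-het replicate 1 or 2 or HD-homo replicate 1 or 2 (adjusted p 0.0505 to 0.0663), and that of Wipi2 without HD-het replicate 1 or 3 or HD-homo replicate 1 (adjusted p 0.0517 to 0.0664), both also with only the 6 libraries compared. Those of Ulk1, Atg101 and Wdfy3 were lost with the offsets. The mesenchymal and mural markers also had their highest summed level in HD-het libraries, and their part in these results was not tested. HD-homo stood above both other lines for 5 members (15%), Becn1, Bnip3, Gabarapl1, Gabarapl2 and Map1lc3a, and below both for 3 (15.4%), Atg16l2, Rb1cc1 and Sqstm1. The oligodendrocyte lineage and striatal projection neuron sums, Col1a2 and the progenitor markers Nes, Sox2 and Pax6 also set HD-homo apart. Dlx1 and Dlx2, of the same progenitor list as the last 3, had their highest means there. The part of these markers in these results was not tested. Map1lc3a was the only member called higher at each step from control to HD-het to HD-homo (2.64% of all genes), and none fell at each step (1.75%). A further 13 members were called in no comparison (17.8%), among them Pik3c3, Atg13, Atg14, Atg16l1, Atg7, Tfeb and Tfe3.

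**Figure D1:**
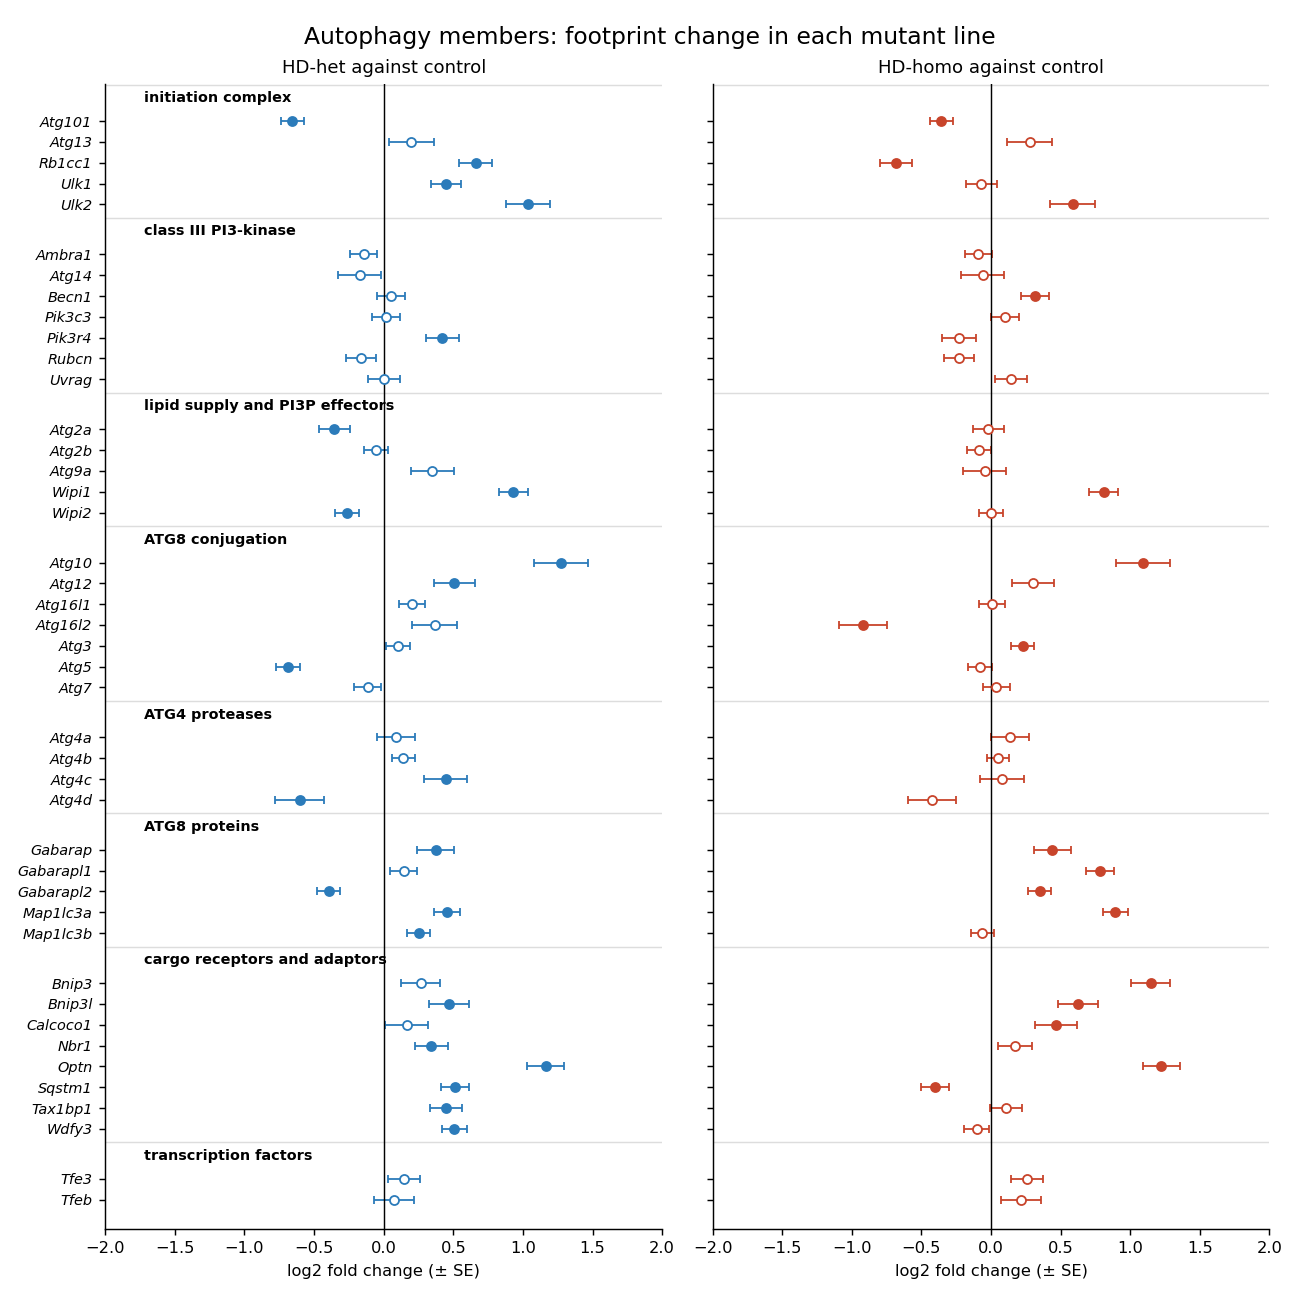
Log2 fold change with its standard error (horizontal axes) of the 43 tested members (rows, grouped by role) in HD-het against control (left, blue) and HD-homo against control (right, red), 3 libraries per line. Filled points passed an adjusted p of 0.05 and open points did not. Of the 43 values 32 lie above 0 on the left and 27 on the right, the class III PI3-kinase subunits and transcription factors are mostly open points, and Rb1cc1, Gabarapl2 and Sqstm1 lie on opposite sides of 0 in the 2 panels.

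The ULK initiation complex held members that moved in opposite directions. Of its 5 members, 3 were higher and 1 was lower in HD-het cells (31% and 29.1% of all tested genes). In HD-homo cells 1 was higher and 2 were lower (23.3% and 22.3% of all genes). Rb1cc1 (chr1:6214634-6276375), which encodes the scaffold FIP200 of the complex, gave 101, 103 and 91.5 CPM in control, 161, 159 and 146 CPM in HD-het and 50.1, 71.2 and 63.0 CPM in HD-homo libraries. The 3 groups did not overlap, with HD-het highest and HD-homo lowest. Its log2 fold change against control was 0.66 ± 0.12 (SE) in HD-het cells (adjusted p 0.000530) and -0.68 ± 0.12 (SE) in HD-homo cells (adjusted p 0.000663). Between the mutant lines it was -1.34 (SE 0.12, adjusted p 2.10e-06), the largest difference of any member in that comparison. The Rb1cc1 annotation overlaps that of the noncoding gene 4732440D04Rik, whose reads could not be separated here. These calls held under every alternative tried.

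Ulk2 (chr11:61775598-61855334), 1 of the 2 ULK kinase genes, gave 2.02, 2.31 and 2.33 CPM in control, 5.12, 4.68 and 3.88 CPM in HD-het and 3.31, 3.71 and 3.02 CPM in HD-homo libraries. The groups did not overlap, and both mutant lines lay above control. Ulk2 was 2.05-fold higher in HD-het (log2 fold change 1.04, SE 0.16, adjusted p 0.000196) and 1.5-fold higher in HD-homo cells (0.59, SE 0.16, adjusted p 0.0119). The HD-homo call was lost without control replicate 1 (adjusted p 0.0556). Its lower level in HD-homo against HD-het (-0.45, SE 0.15, adjusted p 0.0229) was lost without HD-het replicate 1 or 2 or HD-homo replicate 1 or 3 (adjusted p 0.0501 to 0.0924), with total counts and with offsets for GC content and coding length. Among the members picked after their values were seen, the paralog kinase gene Ulk1 was higher in HD-het (0.45, SE 0.11, adjusted p 0.00415) and stood at -0.07 ± 0.11 (SE) in HD-homo cells (adjusted p 0.648). Its HD-het call was lost with the same offsets (adjusted p 0.0630).

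Atg101 (chr15:101284301-101290947), also picked after its values were seen, encodes the partner that stabilizes ATG13 in the complex. It gave 33.3, 34.0 and 35.9 CPM in control, 21.6, 22.9 and 20.9 CPM in HD-het and 28.1, 26.7 and 25.7 CPM in HD-homo libraries. No groups overlapped. The log2 fold change was -0.66 ± 0.08 (SE) in HD-het cells (adjusted p 4.97e-05) and -0.36 ± 0.08 (SE) in HD-homo cells (adjusted p 0.00444). Atg13 itself stood at 0.20 and 0.28, and passed the threshold in neither line (adjusted p 0.309 and 0.183).

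Among the class III PI3-kinase subunits and their regulators few were called. Of 7 members, 1 was higher and none lower in each mutant line against control. Of all tested genes 31% were higher and 29.1% lower in HD-het, and 23.3% and 22.3% in HD-homo cells. The range of log2 fold changes was -0.17 to 0.42 in HD-het and -0.23 to 0.31 in HD-homo cells. The catalytic subunit Pik3c3 gave 26.1 to 32.7 CPM over all 9 libraries and stood at 0.02 and 0.10 (adjusted p 0.890 and 0.458). Pik3r4 (chr9:105642995-105687655), which encodes the kinase-like subunit VPS15, gave 18.9, 17.6 and 18.6 CPM in control, 22.4, 24.7 and 26.9 CPM in HD-het and 14.2, 18.6 and 14.1 CPM in HD-homo libraries. The HD-het libraries lay above all others, while HD-homo and control overlapped. Pik3r4 was higher in HD-het cells (0.42, SE 0.12, adjusted p 0.0103), and HD-homo stood below HD-het (-0.65, SE 0.12, adjusted p 0.000566). The first of these calls was lost with offsets for GC content and coding length (adjusted p 0.0753). Becn1, which encodes Beclin 1, was higher in HD-homo cells than in control (0.31, SE 0.10, adjusted p 0.0233) and than in HD-het cells (0.26, SE 0.10, adjusted p 0.0345). The first Becn1 call was lost without any 1 control library or HD-homo replicate 1 (adjusted p 0.0524 to 0.0856), and the second without HD-het replicate 1 or 3 or HD-homo replicate 1 (0.0825 to 0.126), with a filter of 10 counts in every library and with only the 6 libraries compared. Ambra1, Atg14, Uvrag and Rubcn were called in no comparison.

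Among the genes of lipid supply and PI3P reading, Wipi1 stood apart from its paralog. Of 5 tested members 1 was higher and 2 were lower in HD-het, and 1 was higher in HD-homo cells. The background over all tested genes, for calls up and calls down in turn, was 31% and 29.1% for HD-het. For HD-homo it was 23.3% and 22.3%. Wipi1 (chr11:109573521-109611389), which encodes a PI3P-binding protein of the forming autophagosome, gave 10.5, 12.4 and 12.1 CPM in control, 24.3, 21.4 and 21.1 CPM in HD-het and 19.6, 22.1 and 19.8 CPM in HD-homo libraries. All 6 mutant libraries lay above the control libraries. The rise was 1.90-fold in HD-het (log2 fold change 0.93, SE 0.10, adjusted p 2.20e-05) and 1.75-fold in HD-homo cells (0.81, SE 0.11, adjusted p 7.77e-05), and both calls held under every alternative. Wipi2, which recruits ATG16L1, was lower in HD-het cells (-0.26, SE 0.09, adjusted p 0.0214) and stood at 0.00 ± 0.09 (SE) in HD-homo cells (adjusted p 0.998). The HD-het call of Wipi2 was lost without control replicate 2 or 3 or HD-het replicate 1 (adjusted p 0.0517 to 0.0768). Of the lipid transfer genes, Atg2a was lower in HD-het cells (-0.35, SE 0.11, adjusted p 0.0178) and Atg2b stood at -0.05 (adjusted p 0.603). Without control replicate 2 or 3 Atg2a did not pass (adjusted p 0.0565 and 0.0698). Atg9a, the vesicle protein gene, stood at 0.35 in HD-het (adjusted p 0.0712) and was lower in HD-homo than HD-het cells by a margin that many alternatives ended (-0.39, SE 0.16, adjusted p 0.0416, and 0.0583 to 0.133 without control replicate 1, HD-het replicate 1 or 3, or HD-homo replicate 2 or 3).

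The conjugation systems held the member with the largest rise in HD-het cells and the member with the largest fall in HD-homo cells. Of 7 members, 2 were higher and 1 was lower in each mutant line. The shares of all tested genes were 31% and 29.1% in HD-het, and 23.3% and 22.3% in HD-homo cells. Atg10 (chr13:90935348-91224725), the E2-like enzyme that joins ATG12 to ATG5, gave 1.49, 1.43 and 1.28 CPM in control, 3.11, 3.96 and 3.03 CPM in HD-het and 2.45, 3.44 and 3.15 CPM in HD-homo libraries. Every mutant library lay above every control library. Atg10 was 2.42-fold higher in HD-het (log2 fold change 1.27, SE 0.19, adjusted p 0.000171) and 2.13-fold higher in HD-homo cells (1.09, SE 0.19, adjusted p 0.000795). Its counts were among the lowest of the members, at 34 to 144 per library. Atg5, the acceptor of ATG12, was picked after its values were seen and gave 43.6, 38.4 and 42.2 CPM in control, 25.1, 27.7 and 24.3 CPM in HD-het and 38.5, 40.5 and 38.3 CPM in HD-homo libraries. The HD-het libraries lay below all others (-0.69 against control, SE 0.09, adjusted p 5.29e-05), and HD-homo stood at -0.08 (SE 0.09, adjusted p 0.475). Atg12 was higher in HD-het cells (0.51, SE 0.15, adjusted p 0.0113), a call lost without control replicate 2 or HD-het replicate 2 (adjusted p 0.0540 and 0.0594). The E1-like Atg7 was called in no comparison, at -0.12 and 0.04 (adjusted p 0.327 and 0.779).

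Of the 2 genes for ATG16-like proteins only Atg16l2 was called. Atg16l2 (chr7:101286325-101302267), the paralog of the scaffold that places the conjugation machinery on the membrane, gave 4.51, 4.76 and 4.78 CPM in control, 7.48, 5.23 and 5.44 CPM in HD-het and 2.59, 2.68 and 2.13 CPM in HD-homo libraries. HD-homo lay below both other lines, with no overlap. It was 1.89-fold lower in HD-homo than in the control line (log2 fold change -0.92, SE 0.17, adjusted p 0.00115) and 2.44-fold lower than in HD-het cells (-1.28, SE 0.17, adjusted p 4.72e-05). Atg16l1, the main form, gave 20.0 to 25.9 CPM over all libraries and was called in no comparison. Atg3, the E2-like enzyme of the ATG8 branch, was barely called in HD-homo cells (0.23, SE 0.09, adjusted p 0.0491), and this call was lost without any 1 library other than HD-homo replicate 1 (adjusted p 0.0732 to 0.169) and with 4 other settings.

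The ATG4 proteases process ATG8 precursors and remove lipidated ATG8 from membranes. Atg4b, the main form, and Atg4a were called in no comparison, with 27.8 to 32.2 and 9.88 to 13.9 CPM over the libraries. Atg4d (chr9:21265205-21274837), whose annotation overlaps Kri1, gave 3.32, 3.50 and 4.51 CPM in control, 2.51, 2.39 and 2.55 CPM in HD-het and 2.45, 3.29 and 2.71 CPM in HD-homo libraries. All mutant libraries lay below all control libraries. The difference passed in HD-het (-0.60, SE 0.17, adjusted p 0.0108) and not in HD-homo cells (-0.43, SE 0.17, adjusted p 0.0630). The HD-het call was lost without control replicate 3, the highest control library (adjusted p 0.0514). Atg4c was higher in HD-het cells (0.44, SE 0.16, adjusted p 0.0277), a call lost without control replicate 2 or 3 or HD-het replicate 2 (adjusted p 0.0900 to 0.121).

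The summed level of the 5 ATG8 genes, which was not tested, was 488 ± 31.0 CPM for control, 570 ± 20.2 for HD-het and 641 ± 68.3 for HD-homo (SD, n = 3). Singly, 3 were higher and 1 was lower in HD-het cells (31% and 29.1% of all tested genes). In HD-homo cells 4 were higher and none lower (23.3% and 22.3% of all genes). Map1lc3a (chr2:155276364-155278073), which encodes LC3A, gave 35.8, 32.0 and 30.5 CPM in control, 44.7, 47.9 and 42.0 CPM in HD-het and 62.1, 57.4 and 63.1 CPM in HD-homo libraries. The 3 lines were fully separated and ordered by the number of 111-glutamine alleles, with 1.37-fold and 1.86-fold higher levels than control (adjusted p 0.00122 and 1.20e-05). From HD-het to HD-homo cells the log2 fold change was 0.44 (SE 0.09, adjusted p 0.00120). That last step was lost with offsets for GC content and coding length (0.12, adjusted p 0.257), while both differences from control were kept.

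Map1lc3b (chr8:121590438-121598760), which encodes LC3B, gave 98.7, 97.5 and 102 CPM in control, 124, 115 and 115 CPM in HD-het and 91.5, 104 and 89.6 CPM in HD-homo libraries. HD-het lay above both other lines, which overlapped. In HD-homo cells it was lower than in HD-het cells (-0.31, SE 0.08, adjusted p 0.00500). Its HD-het call against control (0.25, SE 0.08, adjusted p 0.0189) ended without control replicate 1 or 2 or HD-het replicate 1 (adjusted p 0.0674 to 0.0955), with total counts and with no filter. The gene's annotation overlaps Zcchc14, and a read in the overlap cannot be assigned here.

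**Figure D2:**
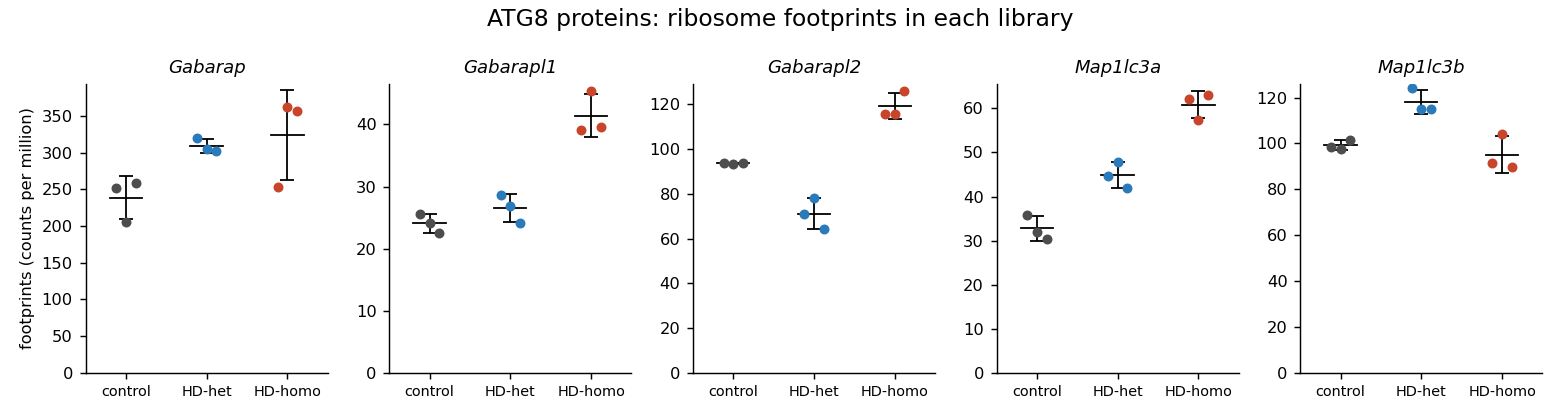
Footprints of the 5 ATG8 genes in CPM (vertical axes, from 0, each with its own range) by cell line (control, HD-het, HD-homo). Coloured points are the 3 libraries of a line, and black lines with bars are their mean and SD. Map1lc3a is separated between all 3 lines, Gabarapl2 is lowest in HD-het and highest in HD-homo libraries, and the HD-homo libraries of Gabarap spread from 254 to 362 CPM.

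The GABARAP branch did not move as one. Gabarap (chr11:69991370-69994949) gave 252, 206 and 258 CPM in control, 320, 305 and 303 CPM in HD-het and 254, 362 and 357 CPM in HD-homo libraries. HD-het lay above control, while HD-homo replicate 1 fell inside the control range. Gabarap was higher in HD-het (0.37, SE 0.13, adjusted p 0.0316) and also in HD-homo cells (0.44 with SE 0.13, adjusted p 0.0196). The HD-het call was lost without control replicate 1 or 2 or any HD-het library (adjusted p 0.0575 to 0.129) or with total counts, and the HD-homo call without control replicate 2 or HD-homo replicate 2 or 3 (adjusted p 0.0616 to 0.0835).

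Gabarapl1 (chr6:129533192-129542331) gave 25.6, 24.1 and 22.5 CPM in control, 28.6, 26.9 and 24.1 CPM in HD-het and 39.1, 45.4 and 39.7 CPM in HD-homo libraries. The HD-homo libraries lay above all others. Gabarapl1 was 1.72-fold above the control line in HD-homo (log2 fold change 0.78, SE 0.10, adjusted p 6.74e-05) and stood at 0.14 ± 0.10 (SE) in HD-het cells (adjusted p 0.238). Its annotation overlaps that of 1700101I11Rik. Gabarapl2 (chr8:111940703-111952915), which encodes GATE-16, gave 93.8, 93.4 and 93.5 CPM in control, 71.1, 77.9 and 64.2 CPM in HD-het and 116, 116 and 126 CPM in HD-homo libraries. No groups overlapped, and the mutant lines lay on opposite sides of control. The log2 fold change was -0.40 ± 0.08 (SE) in HD-het cells (adjusted p 0.00190) and 0.35 ± 0.08 (SE) in HD-homo cells (adjusted p 0.00569), and 0.75 between the mutant lines (SE 0.08, adjusted p 1.44e-05). Only the HD-het value lost its call, with offsets for GC content and coding length (-0.15, adjusted p 0.147).

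Of the 8 cargo receptors and adaptors, 6 were higher and none was lower in HD-het cells, where 31% and 29.1% of all tested genes were. In HD-homo cells 4 were higher and 1 was lower (23.3% and 22.3% of all genes). Their summed level, not tested, was 772 ± 27.2 CPM for control, 1081 ± 123 for HD-het and 749 ± 64.9 for HD-homo (SD, n = 3), and Sqstm1 was the largest part of it. Optn (chr2:5020521-5064399), the gene of optineurin, a receptor of ubiquitinated mitochondria, bacteria and aggregates, gave 16.1, 14.9 and 15.7 CPM in control, 36.6, 36.7 and 31.0 CPM in HD-het and 29.8, 35.8 and 43.4 CPM in HD-homo libraries. All 6 mutant libraries lay well above control, while the mutant lines overlapped. Optn was 2.24-fold higher in HD-het (log2 fold change 1.16, SE 0.13, adjusted p 2.45e-05) and 2.33-fold higher in HD-homo cells (1.22, SE 0.13, adjusted p 2.06e-05). Both calls held under every alternative, with values of 1.11 to 1.22 and 1.08 to 1.35.

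Sqstm1 (chr11:50200152-50210820), which encodes p62, was picked after its values were seen because the mutant lines differed in direction. The gene gave 399, 401 and 446 CPM in control, 668, 598 and 512 CPM in HD-het and 327, 323 and 293 CPM in HD-homo libraries. The groups were separated, with HD-het highest and HD-homo lowest, as for Rb1cc1. The log2 fold change against control was 0.51 ± 0.10 (SE) in HD-het cells (adjusted p 0.00123) and -0.40 ± 0.10 (SE) in HD-homo cells (adjusted p 0.00795), and -0.91 between the mutant lines (SE 0.10, adjusted p 1.36e-05). All 3 calls held under every alternative. The related receptor genes Nbr1 and Tax1bp1 were not called there. Nbr1 stood at 0.17 (adjusted p 0.265) and Tax1bp1 at 0.11 (adjusted p 0.485) in HD-homo cells. Both were higher in HD-het cells, at 0.34 (SE 0.12, adjusted p 0.0282) and 0.45 (SE 0.12, adjusted p 0.00588), and the Nbr1 call was lost without any 1 control library or HD-het replicate 1 or 2 (adjusted p 0.0614 to 0.0976), with total counts and with offsets for GC content and coding length.

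The mitophagy receptor genes Bnip3 and Bnip3l, whose products sit in the outer mitochondrial membrane, had different patterns. Bnip3 (chr7:138890836-138909506) gave 14.6, 14.8 and 16.0 CPM in control, 18.8, 19.9 and 15.6 CPM in HD-het and 28.0, 40.0 and 32.6 CPM in HD-homo libraries. The HD-homo libraries lay above all others, and HD-het overlapped control. Bnip3 was 2.21-fold above the control line in HD-homo (log2 fold change 1.15, SE 0.14, adjusted p 4.53e-05) and 1.84-fold higher than in HD-het cells (0.88, SE 0.14, adjusted p 0.000157). Bnip3l was higher in HD-het (0.47, SE 0.15, adjusted p 0.0159) and also in HD-homo cells (0.63 with SE 0.15, adjusted p 0.00452). The HD-het call of Bnip3l was lost without control replicate 1 or HD-het replicate 1 or 2 (adjusted p 0.0543 to 0.0899).

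Calcoco1, a receptor of the endoplasmic reticulum and Golgi, was higher in HD-homo cells (0.47, SE 0.15, adjusted p 0.0262), a call lost without control replicate 1 or 3 or HD-homo replicate 1 or 2 (adjusted p 0.0523 to 0.0870). Wdfy3, which encodes the large adaptor ALFY that has been studied in the clearance of huntingtin aggregates, gave 22.4, 25.0 and 27.1 CPM in control, 35.5, 35.1 and 35.2 CPM in HD-het and 23.5, 23.8 and 22.1 CPM in HD-homo libraries. HD-het lay above both other lines (0.51 against control, SE 0.09, adjusted p 0.000531). Wdfy3 has the longest coding sequence of the members, 10527 nt. With offsets for GC content and coding length the HD-het value was 0.09 (adjusted p 0.356) and the HD-homo value against control turned from -0.10 to 0.26 (adjusted p 0.027).

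**Figure D3:**
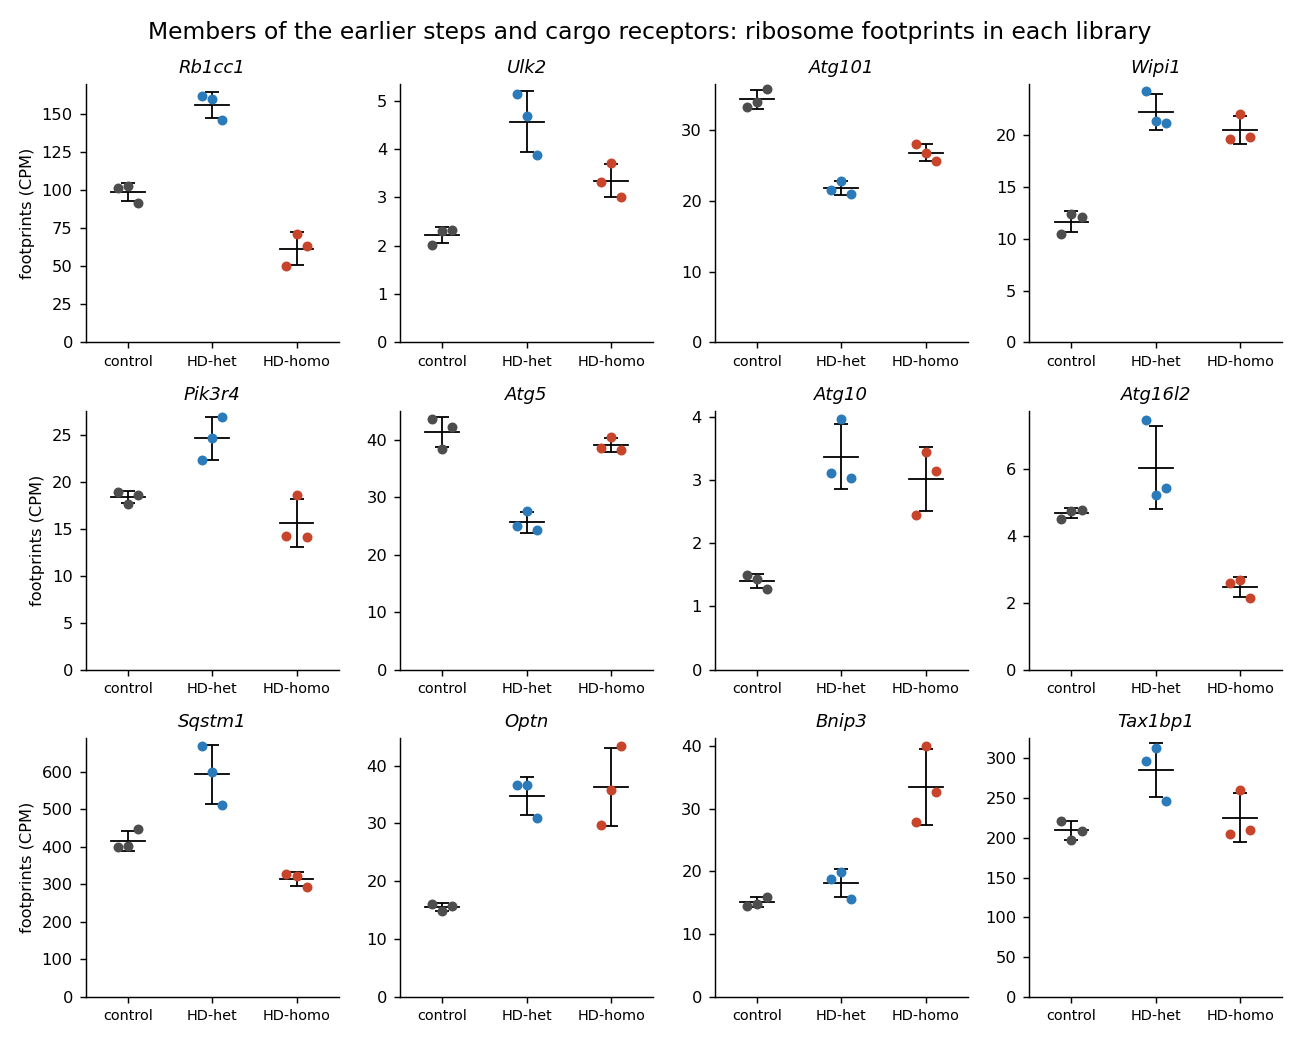
Footprints of 12 members in CPM (vertical axes, from 0, each with its own range) by cell line (control, HD-het, HD-homo). Coloured points are the 3 libraries of a line, and black lines with bars are their mean and SD. Rb1cc1 and Sqstm1 are highest in HD-het and lowest in HD-homo libraries, Optn, Wipi1 and Atg10 are above control in every mutant library, and Atg5 and Atg101 are lowest in HD-het libraries.

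Tfeb and Tfe3 encode transcription factors that induce lysosome and autophagy genes when they enter the nucleus. Neither was called in any comparison. Tfe3 (chrX:7762530-7775202) gave 32.6, 28.7 and 29.8 CPM in control, 33.8, 38.4 and 28.3 CPM in HD-het and 39.2, 34.1 and 35.3 CPM in HD-homo libraries. The HD-homo libraries lay above control but the difference did not pass (0.26, SE 0.12, adjusted p 0.0907), which does not show that the levels were equal. With offsets for GC content and coding length it passed (0.32, adjusted p 0.0399). The footprint level of a factor does not report where the protein is in the cell.

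Promoters were searched for the letters these factors and 2 others bind, in 44 RefSeq promoters of 36 members, each 250 bases before to 50 after a start in GRCm38.p6, on both strands. The CLEAR core TCACGTG of TFEB and TFE3 was present in 4 of the 44 promoters (9.09%), those of Atg3, Atg7, Atg14 and Rubcn, against 3.77% of all 32851 promoters. The shorter hypoxia response core ACGTG, which every TCACGTG also contains, was in 17 (38.6%, against 19.6% of all), and the antioxidant response core TGACNNNGC in 4 (9.09%, against 12.4%). The set of all promoters was not limited to genes tested here or matched for base composition. The differences in share were not tested. A stretch of the Atg3 promoter is shown as it holds the CLEAR core, and one of the Bnip3 promoter as this gene is a textbook hypoxia target, with the motif in capitals.
Atg3 (chr16:45158746-45158774, plus strand): ggagagtcgagTCACGTGaggccttaggt
Bnip3 (chr7:138909598-138909624, minus strand): gcacgcgccgcACGTGccacacgctcc
These matches describe the letters and do not show that a factor binds there. Of the 4 genes with the CLEAR core, Atg3 alone was called, in HD-homo cells as given above.

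Related members were also compared as ratios of counts within a library, which do not depend on how libraries are scaled. Of 8 ratios, each tested for a difference among the 3 lines by an exact permutation test over 1680 assignments of the libraries, 6 passed after adjustment over the 8, and 2 of these share Gabarapl1. How many ratios of other gene pairs would pass was not measured, and 78.4% of all single genes differed among the lines. The ratios use the same counts as the calls above and are not separate support for them. The Map1lc3a to Map1lc3b ratio was 0.363, 0.328 and 0.300 for control, 0.360, 0.417 and 0.366 for HD-het and 0.679, 0.550 and 0.704 for HD-homo. HD-homo was separate from both other lines, whose ranges overlapped (exact permutation p 0.00714, adjusted 0.0190). The Bnip3 to Bnip3l ratio was 0.888 to 0.955 for control, 0.712 to 0.859 for HD-het and 1.20 to 1.45 for HD-homo, without overlap (exact permutation p 0.00357, the smallest that this design allows, adjusted 0.0143). The same p was found for Wipi1 to Wipi2, at 0.219 to 0.249 for control, 0.479 to 0.602 for HD-het and 0.362 to 0.463 for HD-homo.

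The Ulk1 to Ulk2 footprint ratio was 3.88 to 4.98 for control, 2.60 to 2.99 for HD-het and 2.46 to 3.16 for HD-homo (exact permutation p 0.0286, adjusted 0.0429). Both mutant lines lay below control. The call was lost without control replicate 1, HD-het replicate 2 or 3, or HD-homo replicate 1 or 2 (adjusted exact p 0.0514 to 0.0629). The Gabarapl1 to Gabarapl2 ratio was 0.241 to 0.273 for control, 0.345 to 0.402 for HD-het and 0.314 to 0.392 for HD-homo (exact permutation p 0.0143, adjusted 0.0286), a call lost without HD-het replicate 1 (adjusted exact p 0.0514) or HD-homo replicate 1 (0.05). Gabarapl1 to Gabarap passed most narrowly, with overlap between control and HD-homo libraries (exact permutation p 0.0321, adjusted 0.0429), and was lost without control replicate 1 or any HD-het or HD-homo library (adjusted exact p 0.0619 to 0.124). The Atg4a to Atg4b and Tfeb to Tfe3 ratios did not pass (exact permutation p 0.514 and 0.596). Control stood at 0.389 to 0.415 for the first of these and at 0.278 to 0.295 for the second.

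**Figure D4:**
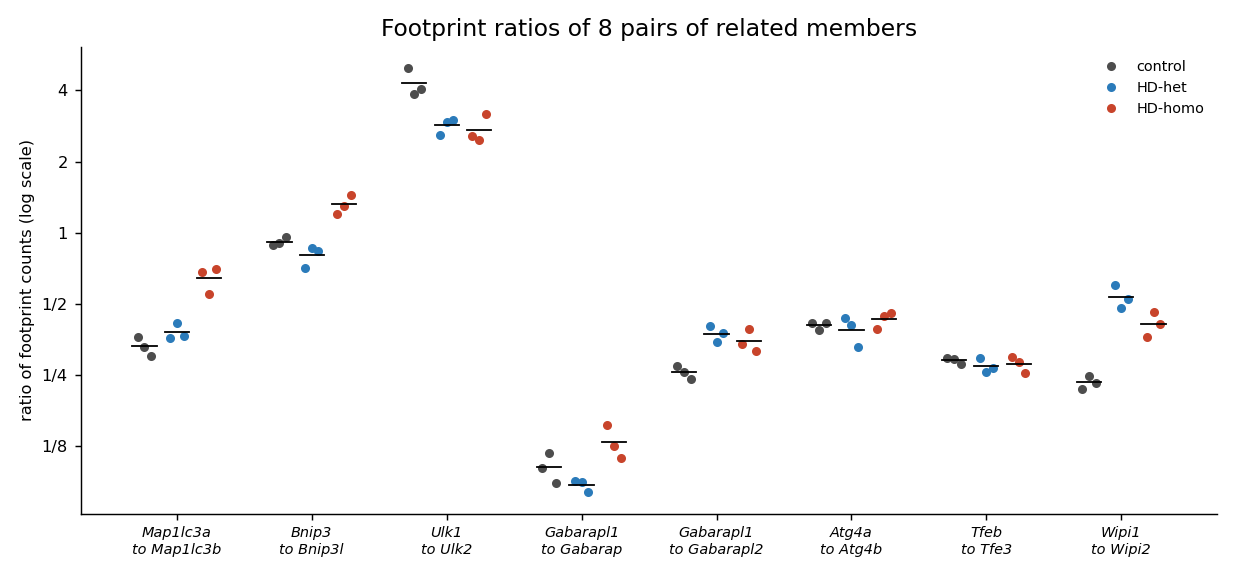
Ratio of footprint counts for 8 pairs of related members (log2-spaced vertical axis) in each of 9 libraries. Points are libraries coloured by line, and black lines are the means of 3 libraries. The HD-homo libraries stand above the others for Map1lc3a to Map1lc3b and for Bnip3 to Bnip3l, while Atg4a to Atg4b and Tfeb to Tfe3 overlap between all lines.

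Levels of different genes were compared as footprint density, CPM per kilobase of coding sequence, averaged over the 9 libraries. Gabarap was highest at 821 CPM per kb, followed by Sqstm1 at 332, Map1lc3b at 276, Gabarapl2 at 267 and Map1lc3a at 126. The order differed by line, and in HD-homo cells Gabarapl2 (337) and Map1lc3b (252) stood above Sqstm1 (237). The 5 ATG8 genes were thus all among the 7 members of highest density. They also have the shortest coding sequences of the members, at 354 to 378 nt. Whether the counts include footprints outside the coding sequence is not known here, and such footprints would raise the density. The study described footprints in the 5′UTR of LC3A and beyond the stop codon of LC3B. The kinase Ulk2, at 1.08, was lowest among tested members, and Atg9b stood at 0.0449 CPM per kb. Of the summed ATG8 density, Gabarap made up 49.5% ± 2.96 for control, 55.1% ± 1.03 for HD-het and 50.9% ± 4.46 for HD-homo (SD, n = 3). The share of Map1lc3a was 6.60% ± 0.599, 7.74% ± 0.415 and 9.39% ± 1.34, and that of Map1lc3b 19.4% ± 1.03, 19.7% ± 0.537 and 14.2% ± 1.46 in the same order. Gabarapl2 made up 19.5% ± 1.27 for control, 12.7% ± 1.01 for HD-het and 19.0% ± 1.88 for HD-homo.

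**Figure D5:**
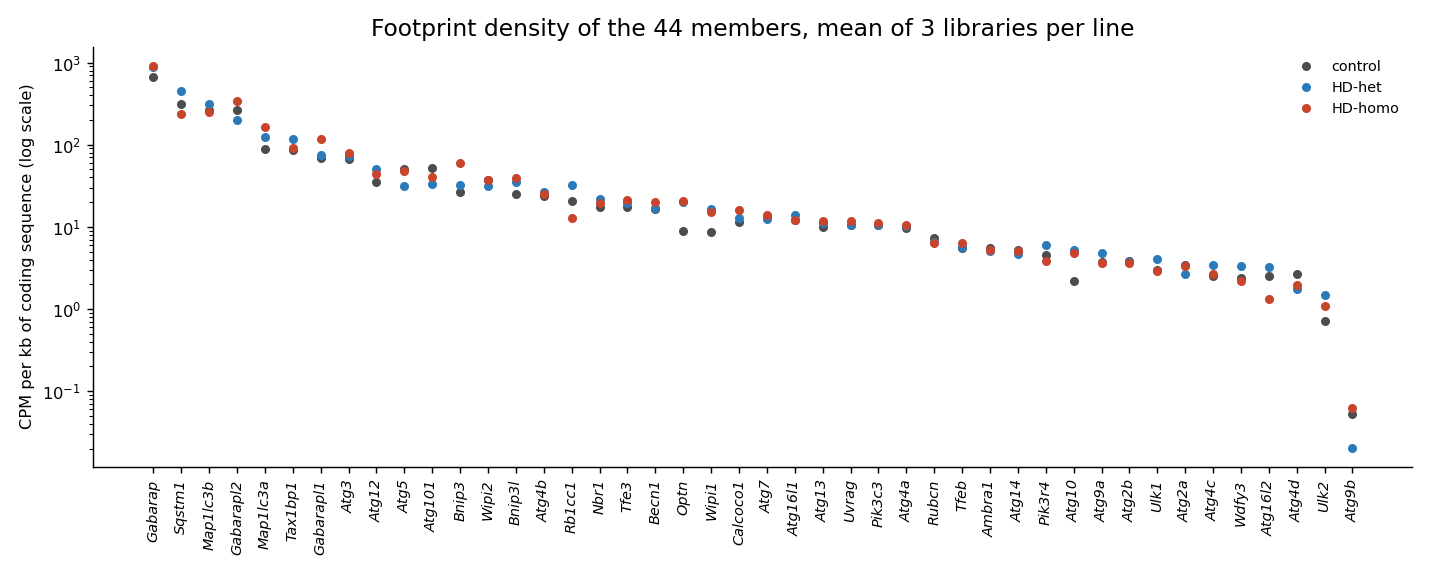
Footprint density of the 44 members in CPM per kb of coding sequence (log10 vertical axis), ordered by the mean over all 9 libraries. Each point is the mean of the 3 libraries of a line. Gabarap leads at 821, and Atg9b, which held 0 to 7 counts per library, is last.

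The libraries of one line differed most for HD-homo cells. The coefficient of variation of member CPM over 3 libraries had a median of 6.01% for control, 8.05% for HD-het and 11% for HD-homo, and the highest values were 17.0%, 22.7% and 24.3%. The fit takes 1 spread per gene for all lines, so this difference is not carried into the standard errors given here.

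Further genes of the pathway that are not members were read from a list of 55 autophagy genes of later steps and regulation, of which 51 were tested. Of these 17 were higher and 13 lower in HD-het (31% and 29.1% of all tested genes), and 12 were higher and 5 lower in HD-homo cells than in control (23.3% and 22.3%), with medians of 0.07 and 0.11 beside 0.02 over all genes. The 3 with the largest called change were Dapk1, Mitf and Bcl2. Mitf, which encodes a relative of TFEB, was lower in HD-het (-0.63, SE 0.19, adjusted p 0.0123) and higher in HD-homo cells (1.52, SE 0.16, adjusted p 1.49e-05), at 1.19 to 1.34 CPM for control, 0.743 to 0.911 for HD-het and 3.52 to 3.68 for HD-homo. Bcl2, whose product binds Beclin 1, was lower in HD-het (-0.77, SE 0.16, adjusted p 0.00134) and also in HD-homo cells (-2.01 with SE 0.17, adjusted p 2.96e-06). The kinase gene Dapk1 was higher in HD-homo cells (2.09, SE 0.34, adjusted p 0.000386), from levels of 0.188 to 0.214 CPM in control.

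Bnip3 was set beside other targets of the hypoxia factor HIF-1, and Sqstm1 beside targets of NRF2, which p62 can activate. Of 24 tested HIF-1 targets 7 were higher and 9 lower in HD-het (31% and 29.1% of all genes), and 9 were higher and 8 lower in HD-homo cells (23.3% and 22.3%), with medians of -0.14 and -0.11 beside 0.02 over all genes. Its largest called changes were in Adm, Car12 and Car9. The peptide hormone gene Adm gave 0.640 to 1.07 CPM in control libraries, at most 0.189 CPM in HD-het and 15.7 to 25.7 CPM in HD-homo libraries (HD-homo against control 4.37, SE 0.32, adjusted p 8.65e-07), and it was lower in HD-het cells (adjusted p 0.000541). The carbonic anhydrase gene Car12 gave 1.96 to 2.83 CPM in control and 14.7 to 23.5 CPM in HD-homo libraries, but only 0.0275 to 0.152 CPM in HD-het, near the limit of 3 counts. It was lower in HD-het (adjusted p 7.36e-06, no fold given at such counts) and higher in HD-homo cells (2.86, SE 0.23, adjusted p 1.82e-06). Car9 reached 0.421 to 0.668 CPM in HD-homo libraries and at most 0.0952 CPM in the others, which is near the limit of 3 counts, so no fold is given. Of 18 NRF2 targets 4 were higher and 8 lower in HD-het, and 7 were higher and 3 lower in HD-homo cells, set against the same shares of all genes, with medians of -0.19 and 0.15. Nqo1 was lower in HD-het (-1.26, SE 0.14, adjusted p 2.48e-05) and higher in HD-homo cells (1.08, SE 0.14, adjusted p 8.91e-05), opposite to Sqstm1 in both lines. Prdx1 (-0.37 in HD-het and 0.42 in HD-homo) and Tkt (-0.32 and 0.26) were called in the directions of Nqo1. Taldo1 (0.59 in HD-het and -0.55 in HD-homo) and Gsta4 (0.52 and -0.69) were called in the directions of Sqstm1. A link of Sqstm1 with these genes was not tested. Slc7a11, the cystine transporter gene, was higher in both mutant lines (2.08 and 0.45, adjusted p 5.74e-07 and 0.0209), and Osgin1 was lower in HD-homo cells (-2.44, SE 0.21, adjusted p 2.71e-06).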

How the data were processed

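Ribosome footprint libraries of 3 striatal lines (3 libraries each) were analysed from 1 table of counts per gene deposited by the authors, as raw whole numbers with no normalization. The submitters' notes name cutadapt, Bowtie 1.0.1 and genome build mm10. The counting program, annotation and use of strand are not given in the sources used here, so reads of overlapping or antisense genes, which 19 of the 44 members have, cannot be told apart. Only some of these overlaps are named in the results. Others are those of Atg12 (with Ap3s1), Becn1 (Cntd1), Atg4a (Psmd10), Rubcn (Fyttd1) and Atg9b (Nos3). Atg5, Atg7, Atg10, Atg16l1, Bnip3, Pik3r4, Tfe3, Uvrag, Wdfy3 and Wipi1 also overlap another annotated gene. Symbols of 26 rows had been turned into dates (0.252% of counts). Groups were taken from the sample labels.

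Differences were tested in R 4.3.3 with edgeR 4.0.16 (TMM, filterByExpr, glmQLFit and glmQLFTest on all 9 libraries with a mean per line, 6 residual degrees of freedom) and adjusted by the Benjamini-Hochberg method over the 12678 genes tested, with calls at 0.05. Log2 fold changes carry SEs from that fit. The 8 ratios were tested on log2 values with an exact permutation test on the spread between line means, which is one-sided by construction. Libraries came from separate rounds of culture of 1 line per genotype, so p-values measure the spread between rounds. Coding length and GC content came from RefSeq transcripts of GRCm38.p6, the build of mm10.

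Library values are given for the 5 ATG8 genes, for members with a called absolute log2 fold change of at least 1 and groups that do not overlap, and, in a role group without one, for the member with the smallest p for any difference. Of each pathway list the 3 genes with the largest called change are named. Prdx1, Tkt, Taldo1 and Gsta4 of the NRF2 list were added after their values were seen. Other members with values were picked after these were seen. Members and lists were chosen with earlier results of these data known. Alternatives were RLE size factors, total counts, DESeq2 1.42.0, no filter or at least 10 counts in every library, the 6 libraries compared, a replicate block, and each library left out. Offsets for GC content and coding length (loess, span 0.5) were added after seeing the data.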

Additional observations from a re-analysis of the deposited data

Results flagged for a closer look

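For 3 members the mutant lines lay on opposite sides of control, each called against control in both lines. As opposite calls picked them out, the difference between the mutant lines was given in advance and is a description here, not a separate test. Rb1cc1 stood at 0.66 in HD-het and -0.68 in HD-homo on the log2 scale, a difference of -1.34. Sqstm1 stood at 0.51 and -0.40, a difference of -0.91. Gabarapl2 ran the other way, at -0.40 and 0.35, a difference of 0.75. Every library of the first 2 genes was above control in HD-het and below it in HD-homo. Among all tested genes 11.9% had opposite calls, so 3 of 43 members is no more than the background. Both contrasts against control share the same 3 control libraries. The summed mesenchymal and mural markers set HD-het apart. The summed striatal projection neuron markers, Col1a2, Pdgfra, Nes, Sox2 and Pax6 set HD-homo apart, where Dlx1 and Dlx2 had their highest means. The part of these markers in these results was not tested.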

How the results depend on the processing

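Of 59 calls among the tested members, 39 held under every alternative planned, 20 were lost under at least 1, and 31 also held with offsets for GC content and coding length. Leaving out 1 library ended 20 calls. With those offsets 13 calls were lost and 15 values passed only there, and 4 values reversed, namely Atg2b (0.44) and Gabarap (-0.29) between the mutant lines, and Wdfy3 against control in HD-homo (0.26) and between the mutant lines (0.16, from -0.61). The cause was not tested. A further 24 values that were not called changed sign under some alternative, none above 0.21 in size. Leaving out 1 library, members called lower in HD-het ran from 3 (without control replicate 3) to 7, members called lower in HD-homo from 4 to 7 (without HD-homo replicate 2), and the log2 gap of the Ulk1 to Ulk2 ratio from -0.77 to -0.55, of Gabarapl1 to Gabarap from 0.46 to 0.70 and of Gabarapl1 to Gabarapl2 from 0.49 to 0.60. Without the log2 transform the Gabarapl1 to Gabarap footprint ratio did not pass (gap 0.0445, adjusted exact p 0.0619). The 59 calls were kept with RLE size factors and DESeq2, and 6 were lost with total counts. Replicate numbers did not pair the libraries (same-number correlations of deviations -0.356 to 0.175, with 1 of 9 libraries closest to its own number). The replicate block gave 17 higher and 6 lower members in HD-het, and 12 and 4 in HD-homo, losing the Atg3 call in HD-homo.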
